A study of Mus musculus with 16 samples.

Results

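Messenger RNA of 35 genes of cholesterol and fatty acid metabolism was followed in bone marrow-derived macrophages (BMDMs), grown in culture from the marrow of mice. The genes were chosen by name for their roles, with earlier results of these data known. Of them, 18 encode enzymes of sterol synthesis, 5 belong to SREBP control and sterol transport, 4 to fatty acid synthesis, 6 to the LXR receptors and their targets, and 2 to the making of oxysterols and cholesterol esters. All 35 were matched by symbol among the 55487 genes of the count table, and all 35 were among the 12372 genes with enough counts to be tested. The 16 samples came from BMDMs of wild-type Balb/c mice aged 8 weeks. Macrophages in DMEM, the culture medium without tumor factors, gave 2 samples (DMEM), and those in DMEM with the JAK1 and JAK2 inhibitor ruxolitinib gave 3 (DMEM + Rux), at a dose and time that the labels do not state. Conditioned media of 4T1 cells, a mouse mammary tumor cell line, gave 3 samples alone (CM), 3 with ruxolitinib at 0.5 μM (CM + Rux) and 3 with the same dose of ruxolitinib and IKK-16, an inhibitor of the IKK kinases that activate NF-κB, at 0.8 μM (CM + Rux + IKK-16). The cells had been starved of serum before treatment. The labels of DMEM, CM and CM + Rux + IKK-16 state no time either. For RNA, the study's methods give 4 h of CM with ruxolitinib. The CM + Rux samples carry a label of 4 h, and 2 further samples of CM and ruxolitinib carry a label of 2 h (CM + Rux 2 h). Neither the labels nor the methods say which step the 2 h refers to, so that these samples cannot be read as an earlier time point. Replicates 1 and 2 were present for DMEM and replicates 2 and 3 for CM + Rux 2 h, and the labels do not say whether replicates were separate mice or cultures, so that p-values measure only the spread between these samples.

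Cells make cholesterol from acetyl-CoA through mevalonate, squalene and lanosterol. SREBP transcription factors switch on the enzymes of this route when sterols in the endoplasmic reticulum run low, and the INSIG proteins hold SREBP back when sterols are plentiful. LXR receptors sense oxysterols and switch on the export of cholesterol through ABCA1 and ABCG1, which macrophages use to unload the cholesterol of the cells and lipoproteins that they take up. In activated macrophages the same genes also respond to inflammatory signals, and CH25H makes an oxysterol that holds SREBP back.

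The total count of a sample ran from 18449388 to 46215853, and the lowest count of any of the 35 genes in a sample was 15. Levels are given as CPM, a gene's count relative to the total count of its library after scaling by relative log expression (RLE). A gene was called higher or lower when edgeR's quasi-likelihood test gave a Benjamini-Hochberg adjusted p-value under 0.05 over all tested genes and the log2 fold change was beyond 0.5. All 8 macrophage markers were counted in every sample, with a summed level of 40100 to 57200 CPM. The 6 epithelial markers, which would be carried by RNA of 4T1 cells, summed to at most 0.118 CPM in DMEM and to 0.733 to 1.45 CPM in CM, with Krt14 at 0 in all samples and Epcam and Krt19 at or below 0.117 CPM. The dendritic cell list summed to 8.53 to 12.7 CPM in CM + Rux 2 h and to at most 2.28 CPM elsewhere, nearly all of it Zbtb46, while the other 3 genes of that list stayed at or below 0.552 CPM. The 7 neutrophil markers summed to 1.72 to 3.24 CPM in CM and at most 0.286 CPM in DMEM, mostly S100a8, with Ly6g at 0 in all samples. These 3 lists moved with CM or with the 2 h group. The fibroblast list, at 5.74 to 20.9 CPM, was highest in replicate 2 of each group. The part of these 4 lists in the results was not tested. The B cell and adipocyte lists summed to at most 0.233 and 0.0887 CPM, and the T and NK cell list to 4.81 to 13.1 CPM, nearly all Cd4.

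The bases before the start of the sterol synthesis genes are shown because most of them hold a short element in common. RefSeq sequences (build GRCm38.p6) of the bases before the start were at hand for 28 of the 35 genes, 15 of them sterol synthesis genes, and the 250 bases before the outermost start of each were searched on both strands. The letters CCAAT, which the factor NF-Y binds and which stand beside SREBP sites in many sterol genes, were found in 13 of the 15 sterol synthesis genes (86.7%). They were found in 53.8% of the 13 other members with a sequence, in 36.8% of the 9210 tested genes with one and in 34.5% of all 27025 genes with one. Counting every start that RefSeq lists, 14 of the 15 held the letters, against 40.7% of the tested genes. The fourteenth was Dhcr7, with none before its outermost start and 2 boxes, beginning 85 and 49 bases before an inner start. Among the members, the letters TCACNCCAC of the sterol regulatory element were found only in Hmgcs1, 137 bases before its start. Of all 27025 genes with a sequence, 1.03% held them. The E-box CACGTG was found in 4 of the 28 members (14.3%), in 8.76% of the tested genes with a sequence and in 6.04% of all genes with one. The letters AGGTCA of the LXR element were found in 3 of the 28 (10.7%), in 10.4% of the tested genes with a sequence and in 13.8% of all genes with one. Their direct repeat spaced by 4 bases was found in 0 of the 28 and in only 3 of all 27025 genes with a sequence. A match in this window is a description of the letters and not a site shown to be bound, and genes without these letters may hold other forms of the elements. In the stretches that follow, capitals mark CCAAT, read as ATTGG where it lies on the other strand, and, in Hmgcs1, the sterol regulatory element. Hmgcs1 (chr13:119690201-119690350 on the + strand), Mvd (chr8:122443423-122443572 on the - strand) and Nsdhl (chrX:72918371-72918520 on the + strand) were called higher in CM. Mvk (chr5:114444119-114444268 on the + strand), with 4 boxes in its stretch, was not called. Acat2 (chr17:12960748-12960875 on the - strand), without a box, was called higher. Of the 8 sterol synthesis genes with a sequence that were called higher in CM, 7 held CCAAT (87.5%), beside the 86.7% of all 15. A link between these letters and the calls was not tested.
Hmgcs1: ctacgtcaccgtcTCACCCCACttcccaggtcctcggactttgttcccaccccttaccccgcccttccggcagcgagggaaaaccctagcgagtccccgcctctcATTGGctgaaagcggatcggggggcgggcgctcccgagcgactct
Mvd: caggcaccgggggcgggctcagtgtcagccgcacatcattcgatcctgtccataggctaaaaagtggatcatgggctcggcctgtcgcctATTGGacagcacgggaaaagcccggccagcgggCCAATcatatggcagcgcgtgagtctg
Nsdhl: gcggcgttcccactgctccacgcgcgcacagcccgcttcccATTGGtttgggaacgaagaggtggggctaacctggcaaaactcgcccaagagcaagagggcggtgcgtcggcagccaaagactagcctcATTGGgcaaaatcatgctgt
Mvk: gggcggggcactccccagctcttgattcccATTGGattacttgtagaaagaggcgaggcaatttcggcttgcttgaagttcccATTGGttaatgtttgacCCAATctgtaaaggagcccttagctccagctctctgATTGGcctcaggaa
Acat2: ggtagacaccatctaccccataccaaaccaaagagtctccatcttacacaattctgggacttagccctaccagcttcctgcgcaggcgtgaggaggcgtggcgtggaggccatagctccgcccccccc

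CM raised 10 of the 18 genes of sterol synthesis and lowered Dhcr7, Abcg1, Nr1h3 and Soat1. Of the 35 genes, 16 were called higher in CM than in DMEM and 4 lower, where 20.9% of all tested genes were called higher and 24.1% lower. The median log2 fold change was 0.73 over the 35 genes and 1.01 over the 18 sterol synthesis genes, against -0.005 over all genes. In bulk RNA, fewer cells that express a gene and less of its RNA per cell cannot be told apart. In total counts, without RLE scaling, the fold changes of this comparison lie lower by a median of 0.31 on the log2 scale, and 10 members were then called higher and 6 lower. The share of all tested genes called with that scaling was not counted, so these counts cannot be set against 20.9% and 24.1%.

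**Figure D1:**
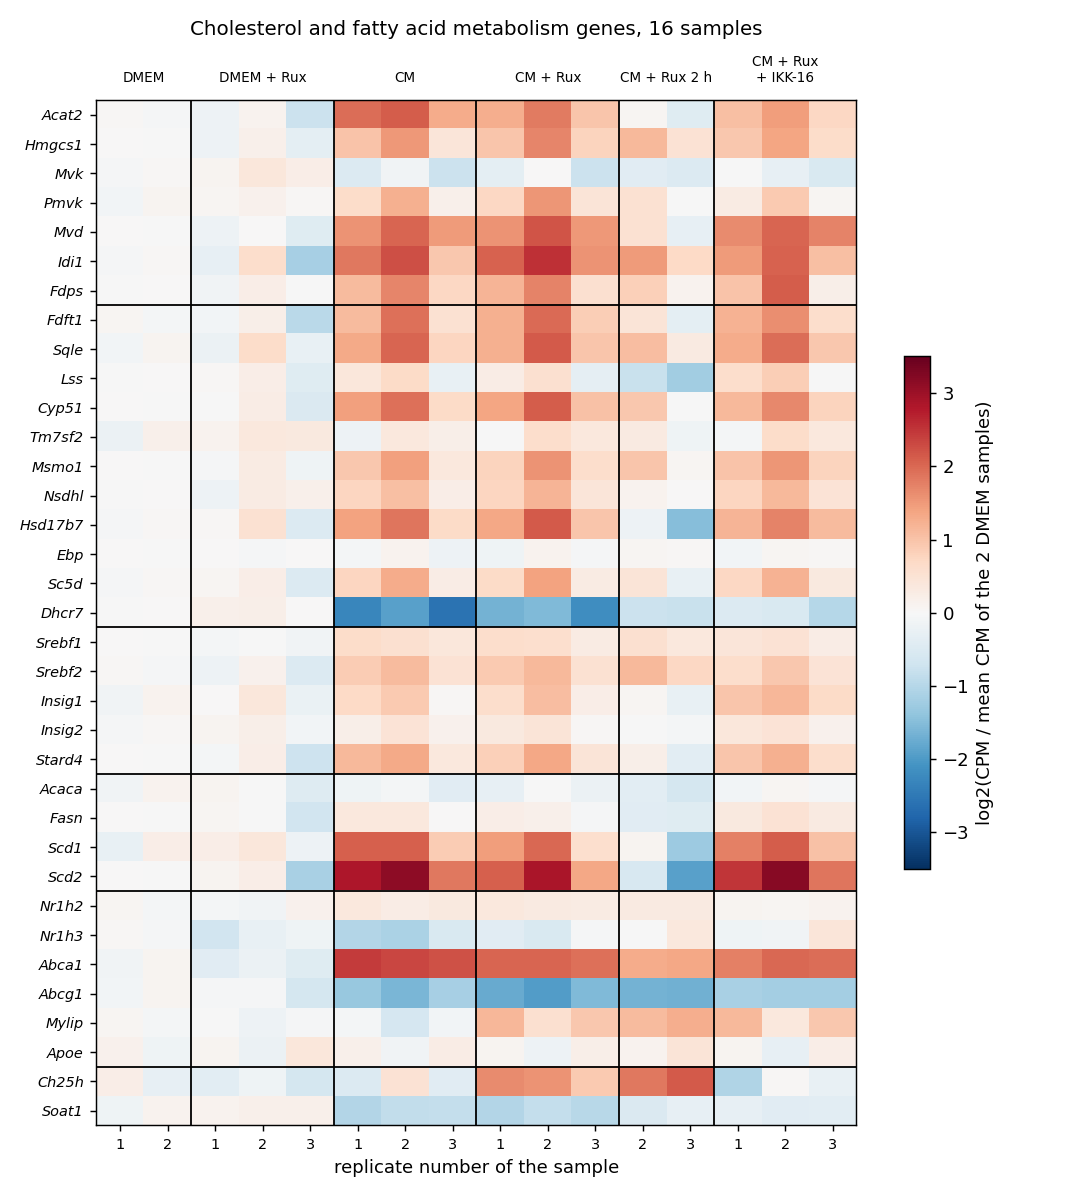
Log2 ratio of the CPM of each of the 35 genes (rows, grouped by role) in each of the 16 samples (columns, with replicate numbers) to the mean CPM of the 2 DMEM samples. Most sterol synthesis genes are red in CM, CM + Rux and CM + Rux + IKK-16 and paler in CM + Rux 2 h, while Dhcr7 and Abcg1 are blue in all samples with CM.

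The first steps of the pathway lead from acetyl-CoA to isoprenoids, and 4 of their 7 genes were called higher in CM. Hmgcs1, which makes HMG-CoA, stood at 56.8 and 54.9 CPM in DMEM and at 111, 159 and 74.8 CPM in CM. The groups did not overlap, and Hmgcs1 was 2.06-fold higher in CM (log2 fold change 1.04 ± 0.34 SE, adjusted p = 0.015). Acat2, the cytosolic thiolase that joins acetyl-CoA units, rose from 8.07 and 7.57 CPM to 30.3, 33.8 and 19.2 CPM (log2 fold change 1.83 ± 0.33 SE, adjusted p = 0.00028). Mvd, which makes isopentenyl diphosphate, rose from 14.4 and 13.9 CPM to 42.4, 58.4 and 39.8 CPM (1.73 ± 0.27 SE, adjusted p = 6.9e-05), with every CM sample above both DMEM samples. Idi1, the isomerase of that product, rose from 4.73 and 5.03 CPM to 17.5, 23.4 and 9.41 CPM (1.79 ± 0.51 SE, adjusted p = 0.0071). Mvk, the mevalonate kinase, was the member of this group with a negative value, at 9.90 and 10.6 CPM in DMEM and at 7.29, 9.33 and 6.03 CPM in CM (-0.43 ± 0.21 SE, adjusted p = 0.095). Pmvk and Fdps had positive values that missed the threshold (adjusted p = 0.075 and 0.051). Fdps was low, at 0.785 to 3.76 CPM over all samples, and its counts are uncertain, since 75.8% of the 100-base stretches of its transcript also occur in other genes and 26.7% of its exon bases overlap Gm43738.

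Of the 11 genes from squalene to cholesterol, 6 were called higher in CM and Dhcr7 was called lower. Sqle, the squalene epoxidase and a rate-limiting step, stood at 20.4 and 23.6 CPM in DMEM and at 55, 90.2 and 37.2 CPM in CM (log2 fold change 1.47 ± 0.45 SE, adjusted p = 0.012). Cyp51, the lanosterol demethylase, rose from 24.6 and 24.1 CPM to 66.3, 93.5 and 38.6 CPM (1.44 ± 0.42 SE, adjusted p = 0.0083). In each of these genes the lowest CM sample, replicate 3, lay above both DMEM samples. Hsd17b7, a reductase of the demethylation steps, rose from 6.86 and 7.16 CPM to 18.6, 25.7 and 11.2 CPM (1.41 ± 0.44 SE, adjusted p = 0.013). Fdft1, the squalene synthase, rose from 12.7 and 11.5 CPM to 25.9, 46 and 17.6 CPM (1.31 ± 0.46 SE, adjusted p = 0.023). Nsdhl, a dehydrogenase of the demethylation steps, rose from 14.9 and 15.1 CPM to 25.3, 31.2 and 17.7 CPM (0.73 ± 0.26 SE, adjusted p = 0.024), and Msmo1, a methyl sterol oxidase, by 0.99 ± 0.36 SE (adjusted p = 0.028). Replicate 3 was again the lowest CM sample of each and lay above DMEM. Lss, Sc5d, Tm7sf2 and Ebp were not called. Ebp, a sterol isomerase, varied little, with 31 to 37.9 CPM over all 16 samples and a log2 fold change of -0.03 ± 0.094 SE in CM.

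Dhcr7, which encodes the reductase of the last step to cholesterol, was the only one of the 18 sterol synthesis genes called lower in CM. It stood at 18.6 and 18.7 CPM in DMEM and at 3.84, 5.02 and 3.14 CPM in CM. The groups lay far apart, and the level was 4.62-fold lower in CM (log2 fold change -2.21 ± 0.20 SE, adjusted p = 6e-07). In DMEM + Rux it was 21.0, 21.5 and 19.0 CPM, in CM + Rux 5.93, 6.42 and 4.17 CPM, in CM + Rux + IKK-16 13.3, 12.8 and 9.29 CPM, and in CM + Rux 2 h 11 and 10.8 CPM. The order of the group means ran from CM over CM + Rux, CM + Rux 2 h, CM + Rux + IKK-16 and DMEM to DMEM + Rux. Neighbours in that order whose samples overlapped were CM with CM + Rux and CM + Rux 2 h with CM + Rux + IKK-16, and DMEM and DMEM + Rux, which did not overlap, differed by 0.14 ± 0.19 SE on the log2 scale.

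**Figure D2:**
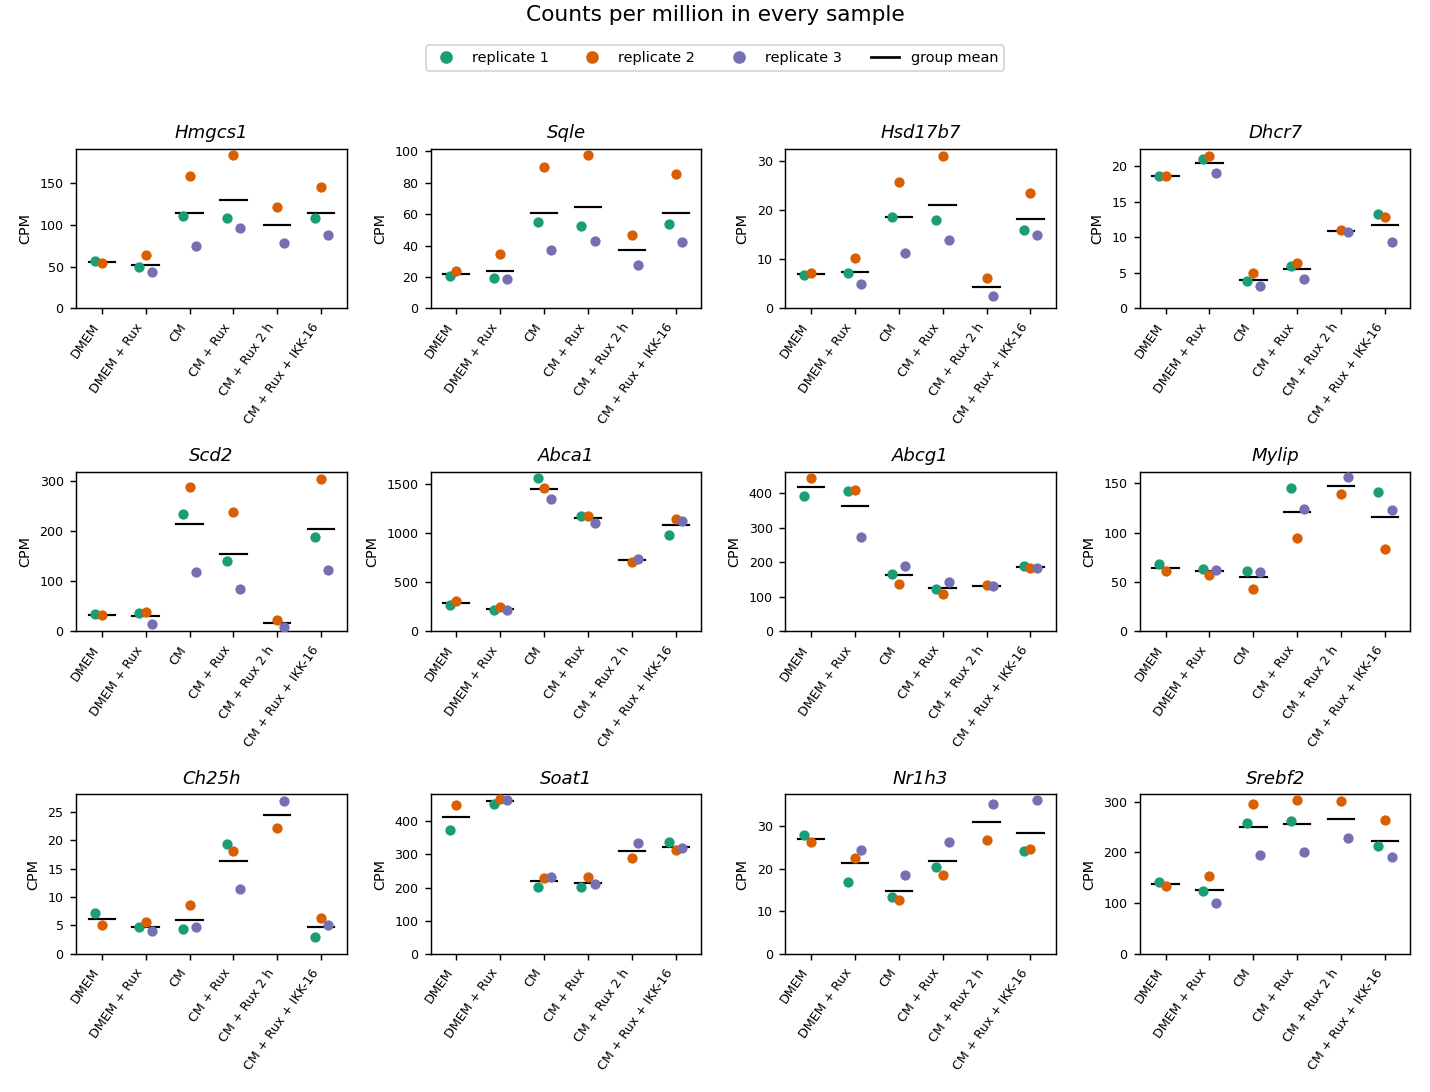
CPM of 12 genes (linear axes from 0) in every sample of the 6 groups, with points coloured by replicate number and bars at the group means. Hmgcs1, Sqle and Hsd17b7 show replicate 2 on top in each CM group, Dhcr7 is lowest in CM and CM + Rux, and Ch25h is high in CM + Rux and CM + Rux 2 h alone.

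Both SREBP genes were called higher in CM, Srebf1 not so in total counts without RLE scaling (0.22, adjusted p = 0.089) nor without CM replicate 1 (0.48). Srebf2, whose protein SREBP2 drives sterol synthesis, stood at 142 and 134 CPM in DMEM and at 257, 296 and 195 CPM in CM (log2 fold change 0.86 ± 0.23 SE, adjusted p = 0.0045). Srebf1, whose protein acts more on fatty acid synthesis, rose from 91.5 and 89.2 CPM to 141, 132 and 119 CPM (0.53 ± 0.11 SE, adjusted p = 0.00075). Neither gene's groups overlapped. Stard4, a carrier of cholesterol between membranes, rose from 25.5 and 24.8 CPM to 55, 62.6 and 32.2 CPM (0.99 ± 0.34 SE, adjusted p = 0.020). Insig1 and Insig2, which retain the SREBP complex in the endoplasmic reticulum, were not called (0.60 ± 0.27 SE, adjusted p = 0.072, and 0.28 ± 0.14 SE, adjusted p = 0.087). Insig1 stood at 44.7 and 52.6 CPM in DMEM and at 78.7, 91.6 and 50.3 CPM in CM, where the lowest sample lay between the DMEM samples. Insig2 stood at 29 and 30.5 CPM and at 34, 41.1 and 33.1 CPM.

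Among the 4 genes of fatty acid synthesis, both stearoyl-CoA desaturases rose and both chain-building enzymes did not pass the test. Scd2, which puts the first double bond into saturated fatty acids, stood at 33.2 and 32.9 CPM in DMEM and at 234, 288 and 118 CPM in CM, 6.46-fold higher (log2 fold change 2.69 ± 0.58 SE, adjusted p = 0.0012). Its paralog Scd1 stood at 1.74 and 2.46 CPM in DMEM and at 9.01, 9 and 3.87 CPM in CM (1.81 ± 0.50 SE, adjusted p = 0.0060). Per kilobase of exon, the mean level in CM was 39.0 CPM for Scd2 and 1.49 CPM for Scd1. Of 100-base stretches, 2.66% of the Scd1 transcript and 0.896% of the Scd2 transcript also occur in other genes, which include each other. Fasn, the fatty acid synthase, stood at 86.2 and 83.9 CPM in DMEM and at 109, 110 and 85.3 CPM in CM (0.26 ± 0.18 SE, adjusted p = 0.22). Acaca, the acetyl-CoA carboxylase, was at 26.7 and 31.5 CPM and at 26, 27.6 and 22.3 CPM (-0.20 ± 0.15 SE, adjusted p = 0.26), and 42.8% of its stretches also occur in Gm5182.

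The cholesterol exporters of the LXR targets moved in opposite directions. Abca1, which hands cholesterol to lipid-poor apolipoproteins, rose from 266 and 308 CPM in DMEM to 1560, 1460 and 1350 CPM in CM, 5.08-fold (log2 fold change 2.34 ± 0.11 SE, adjusted p = 2.4e-09). Abcg1, which exports cholesterol to HDL, fell from 391 and 445 CPM to 167, 137 and 188 CPM, 2.55-fold (-1.35 ± 0.17 SE, adjusted p = 9.6e-06). Neither gene's groups overlapped. Nr1h3, the gene of LXRα, fell from 27.9 and 26.3 CPM to 13.3, 12.6 and 18.6 CPM (-0.87 ± 0.22 SE, adjusted p = 0.0038). Nr1h2, the gene of LXRβ, stood at 104 and 95 CPM and at 129, 120 and 127 CPM, a difference of 0.33 ± 0.078 SE (adjusted p = 0.0024) that stayed under the fold threshold. Mylip, an LXR target and ubiquitin ligase that lowers lipoprotein uptake, and Apoe, the apolipoprotein that carries exported cholesterol, were not called. Apoe stood at 5940 to 9770 CPM over all samples.

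Of the 2 genes that act on cholesterol itself, Soat1, which esterifies it for storage, fell from 374 and 450 CPM to 202, 228 and 233 CPM (log2 fold change -0.90 ± 0.097 SE, adjusted p = 3.1e-06). Ch25h, the cholesterol hydroxylase, stood at 7.21 and 5.03 CPM in DMEM and at 4.40, 8.68 and 4.68 CPM in CM, with overlapping groups (-0.03 ± 0.34 SE, adjusted p = 0.94).

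Further genes of these pathways moved in both directions in CM, where 20.9% of all tested genes were called higher and 24.1% lower. Of 12 further sterol synthesis genes 3 were called higher and 1 lower, with Nus1, which acts in dolichol synthesis, at 1.83 ± 0.13 SE and Lbr, a second sterol reductase, at -1.19 ± 0.17 SE. Of 13 further genes of SREBP control and cholesterol uptake 3 were called higher and 4 lower, and the largest fall was that of Lipa, the lysosomal lipase that frees cholesterol from its esters, from 2060 and 1940 CPM to 523, 475 and 452 CPM (-2.05 ± 0.18 SE, adjusted p = 4.1e-07). Of 18 further genes of fatty acid synthesis and lipogenesis 4 were called higher and 6 lower. The higher ones included Acsl4, Acsl1 and Acsl5, which activate fatty acids (2.07 ± 0.26, 1.43 ± 0.12 and 1.09 ± 0.11 SE), and the lower ones Acss2, which activates acetate (-2.36 ± 0.22 SE), and Lpin1, a phosphatase of glycerolipid synthesis (-2.08 ± 0.43 SE). Of 14 further LXR targets, partners and lipid storage genes 1 was called higher and 6 lower. Pparg, a nuclear receptor of lipid storage, fell from 25.7 and 46.5 CPM to 1.5, 1.75 and 2.04 CPM (-4.34 ± 0.28 SE, adjusted p = 3.4e-08), and Cyp27a1, which makes another oxysterol, fell from 57.9 and 74.2 CPM to 12.7, 12.5 and 12.2 CPM (-2.40 ± 0.11 SE, adjusted p = 1.9e-09). Of 16 tested genes of fatty acid oxidation 1 was called higher and 3 lower, with Cpt1a, which brings fatty acids into mitochondria, at -1.61 ± 0.18 SE and Ppard, a nuclear receptor, at 1.97 ± 0.16 SE.

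The calls of several sterol synthesis genes in CM depended on single samples. Without CM replicate 2, 9 members were called higher. Without DMEM replicate 1 or 2, that group is left with 1 sample, which is assumed to vary like the others. Hmgcs1, for example, then had log2 fold changes of 1.07 and 1.02, against 1.04 in the main fit. The share of all tested genes called in these fits was not counted, and whether calls were lost over all genes alike was not tested. Mvd, Acat2, Srebf2, Scd2 and Abca1 and the 4 genes called lower kept their calls in every alternative. In the fit with a replicate block, 20 members were called higher, Pmvk, Fdps, Sc5d and Insig1 being added, where 21.7% of all tested genes were called higher.

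**Figure D3:**
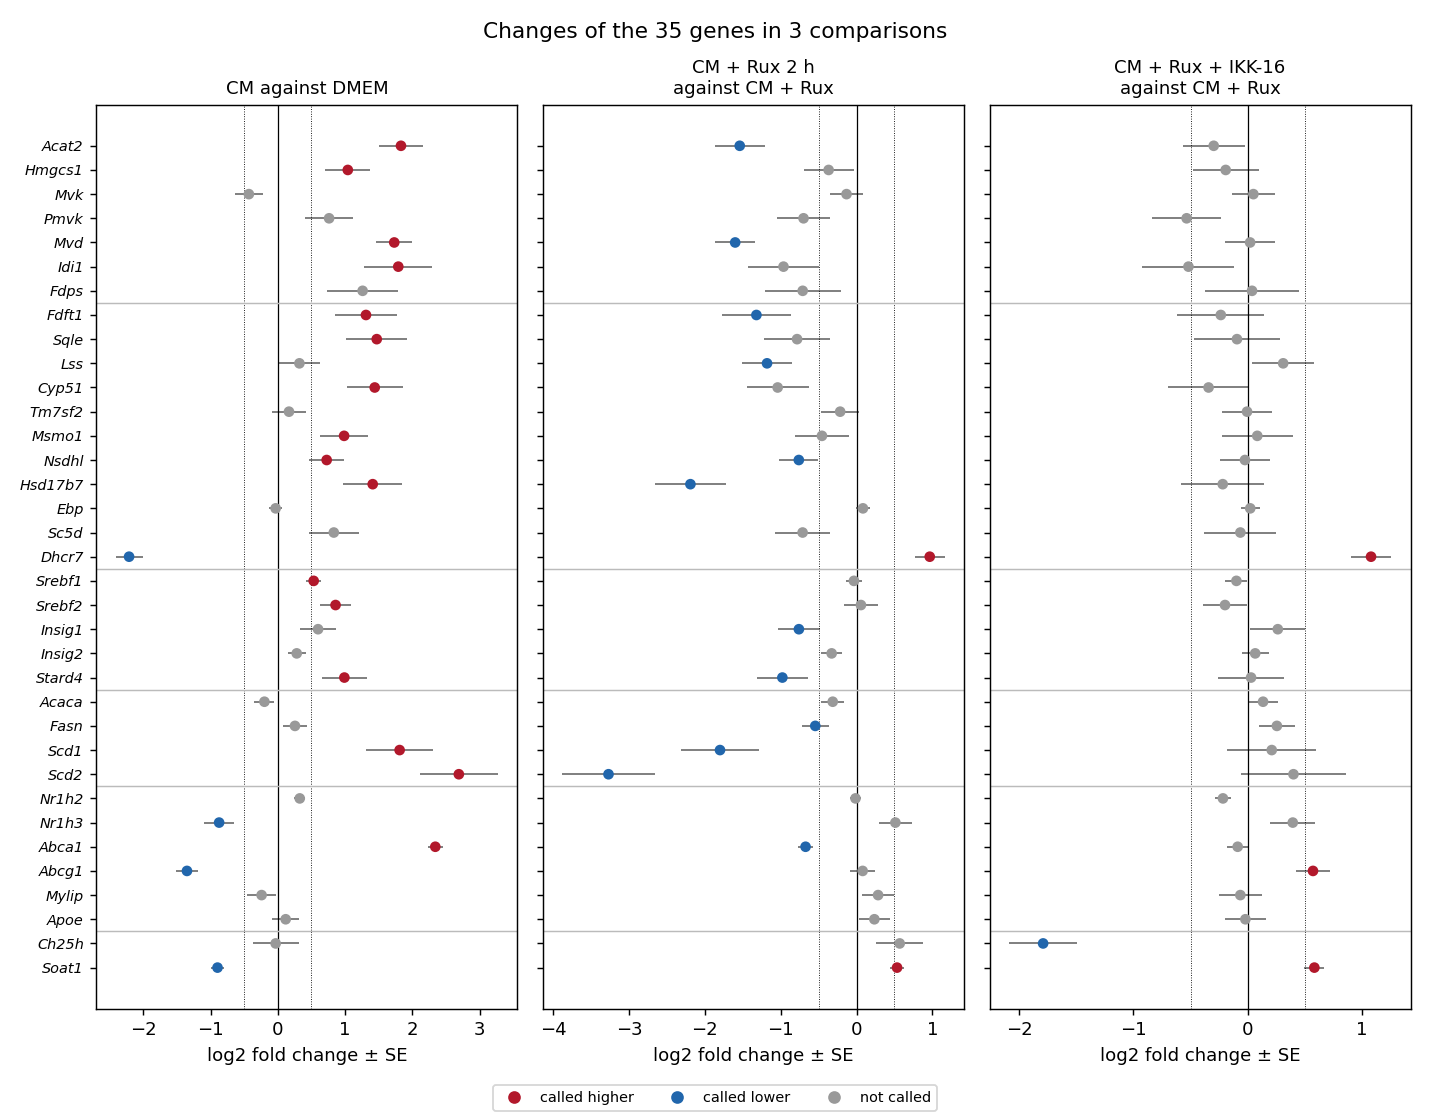
Log2 fold change with its standard error for each of the 35 genes in 3 comparisons, coloured red where called higher, blue where called lower and grey where not called, with dotted lines at the threshold of 0.5. CM against DMEM has most sterol synthesis genes to the right and Dhcr7 to the left, CM + Rux 2 h against CM + Rux has most of them to the left and Dhcr7 to the right, and IKK-16 moved Dhcr7, Abcg1, Soat1 and Ch25h.

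The sterol synthesis genes differed between replicates in the same way in several groups. In CM, CM + Rux and CM + Rux + IKK-16 alike, replicate 2 was the highest and replicate 3 the lowest for 13 of the 18 sterol synthesis genes, for 4 of the 5 genes of SREBP control and sterol transport and for 0 of the 6 LXR genes, where 5.26% of all tested genes had this order in all 3 groups. The ratio of replicate 2 to replicate 3 had a median over the 18 genes of 2.01 in CM, 1.93 in CM + Rux, 1.68 in CM + Rux + IKK-16, 1.58 in CM + Rux 2 h and 1.41 in DMEM + Rux. Over all tested genes these medians were 1 to 1.02. Fdft1, for example, was 2.61-fold and Idi1 2.48-fold higher in CM replicate 2 than in CM replicate 3, while Abcg1 and Mylip had ratios of 0.732 and 0.706. The ratio was above 1 for all 18 genes in each group except DMEM + Rux, where it was so for 17. The summed level of the 5 fibroblast markers was also highest in replicate 2 in each of the 6 groups, at 16.7 to 20.9 CPM. Col1a1 and Col1a2, which encode collagen chains, were 1.58 to 3.34 times as high in replicate 2 as in replicate 3 in the 5 groups with both, and 1 of the 5 markers, Col1a2, had the same order in all 3 groups. The part of these markers in the result was not tested. What the replicate number stands for is not given by the labels. The fit with the replicate block assumes the same replicate effect in every group. DMEM lacks replicate 3, and Hmgcs1, for example, stood at 56.8 and 54.9 CPM in its replicates 1 and 2. In CM these replicates had 111 and 159 CPM. That fit therefore cannot settle the part of the replicate number in CM against DMEM.

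**Figure D4:**
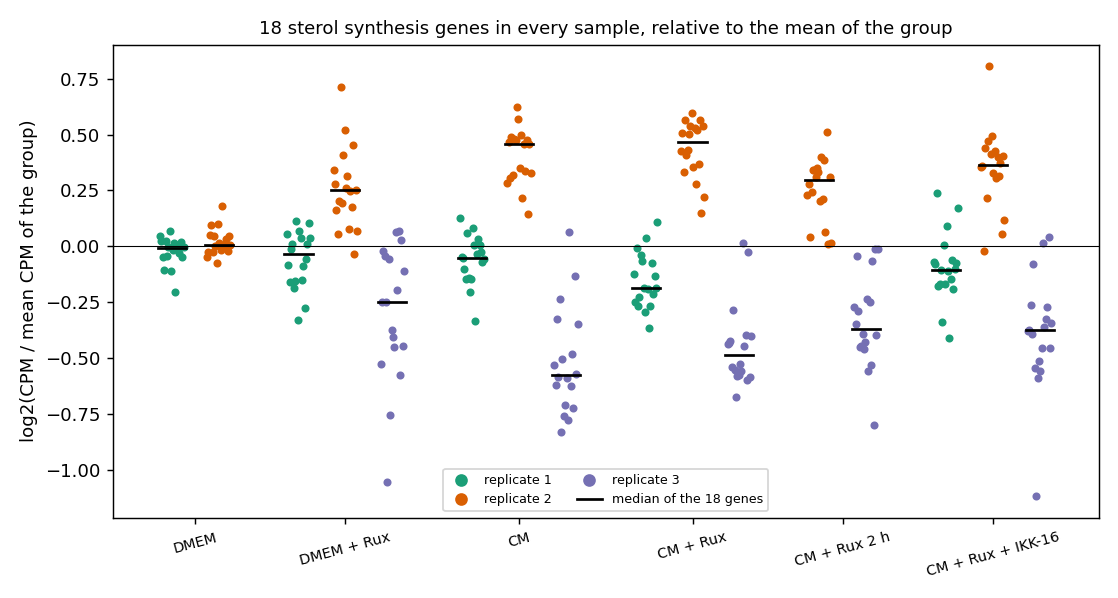
Log2 ratio of the CPM of each of the 18 sterol synthesis genes in each sample to the mean of its group, coloured by replicate number, with bars at the median of the 18 genes. Replicate 2 lies above and replicate 3 below the mean of the group in the 5 groups that hold both, and the 2 DMEM samples, replicates 1 and 2, lie close together.

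Ruxolitinib in CM raised Mylip and Ch25h and left the sterol synthesis genes without a call. Among the 35 genes CM + Rux had 2 called higher and 0 lower against CM, where 1.2% of all tested genes were called higher and 2.13% lower. At an unadjusted p under 0.05, 4 members had positive and 2 negative changes, and DESeq2 also called 0 lower. Mylip stood at 60.9, 42.5 and 60.1 CPM in CM and at 145, 95 and 124 CPM in CM + Rux, 2.23-fold higher (log2 fold change 1.15 ± 0.19 SE, adjusted p = 0.0026). Ch25h rose from 4.40, 8.68 and 4.68 CPM to 19.4, 18.2 and 11.5 CPM, 2.73-fold (1.45 ± 0.30 SE, adjusted p = 0.012). The groups did not overlap in either gene. The call of Ch25h was lost without CM replicate 1 (adjusted p = 0.056), CM replicate 3 (0.053) or CM + Rux replicate 1 (0.060), and Mylip kept its call in every alternative. Over the 18 sterol synthesis genes the median log2 fold change was 0.12, and their values ran from -0.42 for Acat2 to 0.47 for Dhcr7. Abca1 stood at 1180, 1180 and 1100 CPM in CM + Rux (-0.34 ± 0.092 SE, adjusted p = 0.051), below every CM sample. Nr1h3, at 20.5, 18.6 and 26.2 CPM in CM + Rux, was called with the replicate block (0.56, adjusted p = 0.0018) and not without it (0.55 ± 0.20 SE, adjusted p = 0.18), which made 3 members called higher where 2.47% of all genes were. Of the 5 further pathway lists, with 12, 13, 18, 14 and 16 genes, 0 of the 73 genes were called by edgeR's test here, and 10 had an unadjusted p under 0.05.

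In DMEM, ruxolitinib changed none of the 35 genes past the threshold of edgeR's test, where 0% of all tested genes were called higher and 0.97% lower. At an unadjusted p under 0.05, 0 members were higher and 1 lower, DESeq2 called 0 in either direction, and the lowest adjusted p of a member was 0.28. The lower one was Abca1, at 266 and 308 CPM in DMEM and at 216, 250 and 212 CPM in DMEM + Rux. Its log2 fold change was -0.34 ± 0.10 SE (adjusted p = 0.28), and the effect in CM minus that in DMEM was 0.002 ± 0.14 SE. Mylip stood at 67.8 and 60.7 CPM in DMEM and at 63.2, 57.3 and 62.3 CPM in DMEM + Rux, and Ch25h at 7.21 and 5.03 CPM and at 4.76, 5.56 and 3.98 CPM. The ruxolitinib effect in CM minus that in DMEM was 1.23 ± 0.28 SE for Mylip (adjusted p = 0.075), 1.81 ± 0.45 SE for Ch25h (adjusted p = 0.11) and 0.89 ± 0.30 SE for Nr1h3 (adjusted p = 0.28) on the log2 scale. None of the 35 genes was thus called higher or lower in this difference by edgeR's test, where 0.234% and 0.178% of all tested genes were, while 3 had an unadjusted p under 0.05. With the replicate block Mylip (1.26, adjusted p = 0.0011), Ch25h (1.79, adjusted p = 0.034) and Nr1h3 (1.06, adjusted p = 0.0016) were called higher, where 2% of all tested genes were. DESeq2 called Mylip and Ch25h (adjusted p = 0.0034 and 0.0072). Of the 73 further pathway genes edgeR called 0 in DMEM + Rux against DMEM and 0 in the difference, with 0 and 4 at an unadjusted p under 0.05.

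IKK-16 beside ruxolitinib raised Dhcr7, Soat1 and Abcg1 and lowered Ch25h. Against CM + Rux, 3 members were called higher and 1 lower, where 4.07% of all tested genes were called higher and 3.66% lower. Ch25h fell from 19.4, 18.2 and 11.5 CPM to 2.96, 6.27 and 5.13 CPM, 3.46-fold (log2 fold change -1.79 ± 0.30 SE, adjusted p = 0.0017). The samples with IKK-16 lay below all CM + Rux samples and within or below the range of CM, and against CM Ch25h was not called (-0.34 ± 0.31 SE, adjusted p = 0.47). Dhcr7 rose from 5.93, 6.42 and 4.17 CPM to 13.3, 12.8 and 9.29 CPM, 2.11-fold (1.08 ± 0.18 SE, adjusted p = 0.0016). Soat1 rose from 201, 233 and 212 CPM to 337, 313 and 319 CPM (0.58 ± 0.088 SE, adjusted p = 0.00087), and Abcg1 from 123, 107 and 143 CPM to 189, 182 and 184 CPM (0.57 ± 0.15 SE, adjusted p = 0.021). CM + Rux and CM + Rux + IKK-16 did not overlap in these 3 genes, and their levels with IKK-16 stayed below both DMEM samples. The call of Abcg1 was lost without CM + Rux replicate 1 (adjusted p = 0.063), CM + Rux replicate 2 (0.088), CM + Rux + IKK-16 replicate 1 (0.066) or CM + Rux + IKK-16 replicate 3 (0.053). Mylip stayed at 141, 83.1 and 123 CPM (-0.06 ± 0.19 SE against CM + Rux, adjusted p = 0.86), so that its level with both inhibitors lay above all CM samples. The sterol synthesis genes other than Dhcr7 had no call, and the median over all 18 was -0.04. With the replicate block 3 members were called lower, Pmvk (-0.51, adjusted p = 0.027) and Idi1 (-0.51, adjusted p = 0.014) being added to Ch25h, where 5.04% of all tested genes were called lower.

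Against CM without inhibitors, the combination raised 4 members and lowered 0, where 6.6% of all tested genes were called higher and 6.13% lower. Dhcr7 was 2.92-fold higher (log2 fold change 1.54 ± 0.19 SE, adjusted p = 7.8e-05), Mylip 2.13-fold (1.09 ± 0.19 SE, adjusted p = 0.0012), Nr1h3 1.92-fold (0.94 ± 0.20 SE, adjusted p = 0.0048) and Soat1 1.46-fold (0.55 ± 0.088 SE, adjusted p = 0.00066). Nr1h3 stood at 24.3, 24.7 and 36.3 CPM with both inhibitors, above every CM sample. Without CM replicate 1, Soat1 fell under the fold threshold (0.48, adjusted p = 0.0047). Abca1, at 981, 1150 and 1120 CPM, had a difference of -0.43 ± 0.092 SE (adjusted p = 0.0046), also under that threshold. At an unadjusted p under 0.05, 3 members were lower, and Acat2 (-0.72 ± 0.27 SE, adjusted p = 0.071) was called lower by DESeq2 (adjusted p = 0.039) and with the replicate block (-0.71, adjusted p = 0.00016), where 7.31% of all tested genes were called lower.

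Under IKK-16 against CM + Rux, 4.07% of all tested genes were called higher and 3.66% lower. Of the further pathway genes, those called in this comparison were all higher. They were 3 of the 13 genes of SREBP control and uptake, 4 of the 18 of fatty acid synthesis and lipogenesis, 3 of the 14 LXR targets and storage genes, 0 of the 12 of sterol synthesis and 0 of the 16 of fatty acid oxidation. Nceh1, a hydrolase of cholesterol esters, rose from 88.3, 135 and 106 CPM to 342, 352 and 298 CPM (1.59 ± 0.20 SE, adjusted p = 0.00026). Lpin1 rose from 1.27, 1.07 and 0.662 CPM to 3.74, 3.15 and 3.55 CPM (1.75 ± 0.39 SE, adjusted p = 0.0085), and Npc1, which moves cholesterol out of lysosomes, from 139, 142 and 147 CPM to 241, 227 and 241 CPM (0.73 ± 0.12 SE, adjusted p = 0.0017). Arl4c, a small GTPase gene and LXR target named here after its values were seen, rose from 216, 301 and 191 CPM to 407, 442 and 321 CPM (0.73 ± 0.19 SE, adjusted p = 0.019), and was also higher in CM than in DMEM (1.23 ± 0.22 SE, adjusted p = 0.00026). Of the 10 further genes called higher under IKK-16, 6 were called lower in CM than in DMEM, 2 higher and 2 neither. The 3 members called higher, Dhcr7, Soat1 and Abcg1, were all called lower in CM, as were 74.2% of all 504 genes called higher under IKK-16. Against CM alone the combination raised 3 of the 13, 3 of the 18, 2 of the 14, 0 of the 12 and 1 of the 16. It lowered 0 of them by edgeR's test, and Nceh1 was at 1.62 ± 0.20 SE and Lpin1 at 1.75 ± 0.40 SE. Of all tested genes, 6.6% were called higher and 6.13% lower against CM alone.

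In CM + Rux 2 h, 6 of the 18 sterol synthesis genes and 3 of the 4 fatty acid synthesis genes were called lower than in CM + Rux, and Dhcr7 was called higher. Of the 35 genes, 12 were called lower and 2 higher, where 10.7% of all tested genes were called lower and 12.6% higher. The median log2 fold change was -0.54 over the 35 genes and -0.74 over the 18 sterol synthesis genes, against -0.03 over all genes. Of the 16 members called higher in CM than in DMEM, 9 (56.2%) were called lower here, which is 75% of the 12 called lower, and of the other 19 members 3 were called lower. Over all tested genes the overlap was 555 genes, 21.5% of the 2584 called higher in CM and 41.8% of those called lower here. The 2 comparisons share no sample, but same-numbered samples of CM and CM + Rux deviated together, with correlations of 0.43 to 0.62.

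Scd2 differed most, with 22.2 and 8.88 CPM in CM + Rux 2 h against 140, 238 and 84.2 CPM in CM + Rux, 9.63-fold lower (log2 fold change -3.27 ± 0.61 SE, adjusted p = 0.00095). Hsd17b7 stood at 6.24 and 2.51 CPM against 18, 30.9 and 13.8 CPM, 4.57-fold lower (-2.19 ± 0.47 SE, adjusted p = 0.0022). In each of these genes the 2 h samples were at or below the DMEM samples, which had 32.9 to 33.2 CPM for Scd2 and 6.86 to 7.16 CPM for Hsd17b7. Mvd, at 20.3 and 11.7 CPM, was 3.03-fold lower (-1.60 ± 0.26 SE, adjusted p = 0.00038), and Acat2, at 8.2 and 5.78 CPM, 2.91-fold lower (-1.54 ± 0.33 SE, adjusted p = 0.0024). Scd1, at 2.26 and 0.876 CPM, was 3.49-fold lower (-1.80 ± 0.51 SE, adjusted p = 0.013). Fdft1, Lss, Stard4, Nsdhl, Insig1 and Fasn were also called lower, with adjusted p-values from 0.012 to 0.043. Fdft1 stood at 16.6 and 9.47 CPM against 28.9, 47.8 and 22 CPM (-1.32 ± 0.46 SE), and Lss at 14.1 and 10.4 CPM against 28.7, 35.7 and 19.4 CPM (-1.18 ± 0.33 SE). Stard4 stood at 29.1 and 19.3 CPM against 45.2, 64.4 and 34.1 CPM (-0.98 ± 0.34 SE), and Nsdhl at 16.4 and 15 CPM against 25.2, 34.3 and 20.2 CPM (-0.76 ± 0.26 SE). The 2 h samples of these 4 genes lay below all CM + Rux samples. Insig1 stood at 51.2 and 41 CPM against 74, 103 and 57.4 CPM (-0.76 ± 0.28 SE), and Fasn at 64.9 and 63.3 CPM against 99.9, 97.1 and 83.3 CPM (-0.54 ± 0.18 SE), also without overlap. Hmgcs1 did not differ past the threshold, with 122 and 78.9 CPM against 109, 184 and 95.9 CPM (-0.37 ± 0.33 SE), and neither did Srebf2, with 302 and 229 CPM against 261, 304 and 201 CPM (0.06 ± 0.22 SE).

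Dhcr7 and Soat1 were higher in CM + Rux 2 h, by 0.97 ± 0.20 SE (adjusted p = 0.0018) and 0.53 ± 0.098 SE (adjusted p = 0.00081), with 288 and 336 CPM for Soat1. Abca1 was lower, at 711 and 734 CPM (-0.67 ± 0.10 SE, adjusted p = 0.00024). Mylip, at 139 and 156 CPM, and Ch25h, at 22.1 and 26.9 CPM, were not called against CM + Rux (0.28 ± 0.21 SE and 0.57 ± 0.31 SE), the Mylip groups overlapping and the Ch25h samples lying above those of CM + Rux.

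Mvd, Hsd17b7, Acat2, Scd2, Abca1 and Dhcr7 kept their calls in every alternative. The calls of Fdft1, Nsdhl, Insig1, Stard4 and Fasn were lost without CM + Rux replicate 2, which left 7 members called lower, and these 5 and those of Lss and Scd1 without CM + Rux 2 h replicate 3, which left 5. Without CM + Rux 2 h replicate 2 the calls of Fdft1, Nsdhl, Insig1 and Fasn were lost (adjusted p = 0.051 to 0.096), without CM + Rux replicate 1 those of Insig1, Stard4 and Fasn (0.053 to 0.071), and Insig1 also lost its call without each of 5 samples of other groups (0.051 to 0.054). Soat1 came under the fold threshold without CM + Rux replicate 1 (0.49) or CM + Rux 2 h replicate 3 (0.42). With the replicate block 17 members were called lower, Pmvk, Idi1, Fdps, Sqle, Cyp51 and Sc5d being added and Fasn lost (-0.48), where 12.2% of all tested genes were called lower.

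Against DMEM, 4 members were called higher and 3 lower in CM + Rux 2 h, where 16.8% of all tested genes were called higher and 20.5% lower. In total counts without RLE scaling, which lies lower by a median of 0.36 on the log2 scale here, 4 were called higher and 7 lower. The share of all tested genes with that scaling was not counted, so these counts cannot be set against 16.8% and 20.5%. Ch25h was 3.97-fold higher than in DMEM (log2 fold change 1.99 ± 0.37 SE, adjusted p = 0.00049), Abca1 2.52-fold (1.33 ± 0.11 SE, adjusted p = 6e-07), Mylip 2.29-fold (1.2 ± 0.23 SE, adjusted p = 0.00074) and Srebf2 1.93-fold (0.95 ± 0.24 SE, adjusted p = 0.0049). Abcg1, at 133 and 130 CPM, was 3.18-fold lower (-1.67 ± 0.19 SE, adjusted p = 7.3e-06), Dhcr7 1.71-fold lower (-0.78 ± 0.21 SE, adjusted p = 0.0074) and Lss, the lanosterol synthase, at 14.1 and 10.4 CPM, 1.95-fold lower (-0.96 ± 0.35 SE, adjusted p = 0.034). The call of Lss was lost without either DMEM sample or either 2 h sample (adjusted p = 0.056 to 0.17), and that of Srebf2 without CM + Rux 2 h replicate 2 (0.057). The median over the 18 sterol synthesis genes was 0.15. With the replicate block 10 members were called higher, where 17.3% of all tested genes were, and 5 lower, where 21.9% were. The added genes were Hmgcs1, Idi1, Sqle, Cyp51, Msmo1 and Srebf1, called higher, and Hsd17b7 and Scd2, called lower.

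Of the further pathway genes, 9 of the 14 LXR targets and storage genes were called higher and 0 lower in CM + Rux 2 h than in CM + Rux. Over all tested genes, 12.6% were called higher and 10.7% lower in this comparison. Fabp4, a fatty acid binding protein, was at 2.16 ± 0.37 SE, Pparg at 1.93 ± 0.28 SE and Cyp27a1 at 1.73 ± 0.11 SE, and Cyp27a1 stood at 38.0 and 45.2 CPM against 12.1, 13.3 and 12.1 CPM. Of the 12 further sterol synthesis genes 2 were called higher and 2 lower, with Lbr at 0.76 ± 0.17 SE (adjusted p = 0.0036). Of the 13 genes of SREBP control and uptake 3 were higher and 0 lower, with Lipa at 1.35 ± 0.18 SE, of the 18 of fatty acid synthesis and lipogenesis 2 were higher and 2 lower, with Acss2 at 1.73 ± 0.21 SE and Dgat2 at -1.59 ± 0.56 SE, and of the 16 of fatty acid oxidation 3 were higher and 2 lower. Against DMEM the same lists gave 2 higher and 6 lower of the 14, 1 and 2 of the 12, 2 and 0 of the 13, 4 and 4 of the 18, and 1 and 1 of the 16. Arl4c was at 2.06 ± 0.24 SE and Pparg at -1.92 ± 0.28 SE. Of all tested genes, 16.8% were called higher and 20.5% lower against DMEM.

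In all, 25 of the 35 genes were called in at least 1 of the 8 comparisons and 10 in none of them. The share of all tested genes called in at least 1 comparison was not counted. CM against DMEM alone called 20.9% of all tested genes higher and 24.1% lower, so the 25 are not a trait particular to these genes. The 10 were Mvk, Pmvk, Fdps, Tm7sf2, Ebp, Sc5d, Insig2, Acaca, Nr1h2 and Apoe. Counts are uncertain for some members because the counting command did not take fragments that align to several places: besides Fdps and Acaca, 35.3% of the 100-base stretches of Acat2 also occur in Acat3, 20% of those of Idi1 in Gm13502 and Gm35570 and 2.78% of those of Fdft1 in Gm6781. Tm7sf2 shares 12.1% of its exon bases with Vps51.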

How the data were processed

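RNA of 16 BMDM samples was analysed in 6 groups, taken from the condition and replicate number of the labels. The authors trimmed reads with Trimmomatic 0.33, aligned them to GRCm38 with HISAT2 2.1.0 and counted fragments per gene with featureCounts 1.6.2, as the submitters' processing notes and the methods state. The deposited table holds whole-number counts without normalization, by Ensembl identifier, and 55141 of 55487 identifiers had a symbol in the reference tables. Per the file headers, featureCounts ran on fragments with both ends mapped, a mapping quality of at least 10 and the reverse strand, without the options that count multi-mapping or multi-gene fragments, which affects members with close copies. No sample was a copy of another sample of its group: the chi-square between replicates, divided by its degrees of freedom, was 15.2 to 58.7. Samples of different groups were not compared in this way.

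A gene was kept if 2 or more samples had over 1 CPM (12372 genes), and counts were scaled by RLE and fitted in 1 model of 6 groups with the quasi-likelihood test of edgeR 4.0.16 (limma 3.58.1, R 4.3.3), with Benjamini-Hochberg adjustment over all tested genes. Calls were made at the thresholds of the study's methods, 0.05 for the adjusted p-value and 0.5 for the log2 fold change. Standard errors were derived from the log2 fold change and the F statistic. The procedure was tested on simulated counts with known changes in CM, drawn independently for each sample. That simulation lacks the shared deviations of same-numbered samples described below, so it does not test the calls under them. The precision of a level is limited by the 2 or 3 samples of a group. Comparisons that share a group, such as CM, share its error.

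Same-numbered samples deviated together: the correlations of their deviations from the group means were 0.17 to 0.63 over the 18 pairs between groups of 3 and 0.12 to 0.36 over 16 pairs with a group of 2, but 0 between DMEM replicate 2 and CM + Rux 2 h replicate 2. The fit with the replicate number as a block is therefore given where it changes a call.

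Alternatives were TMM normalization (the trimmed mean of M-values), scaling by total counts, no filter, the replicate block, a model of only the groups compared, DESeq2 1.42.0, no fold change threshold, and each of the 16 samples left out. The members and the lists of further pathway genes and markers were chosen with earlier results of these data known. All 35 members are accounted for. Some genes of the further lists are not reported here by name. By rule, values per sample are given for members called in a comparison among the CM groups, for the largest calls, for the pairs Scd1 and Scd2, Insig1 and Insig2, Srebf1 and Srebf2, Nr1h2 and Nr1h3, Abca1 and Abcg1, and for Ch25h, and up to 3 called genes per direction are named from each further list. Sequences before gene starts come from RefSeq (GRCm38.p6), and printed stretches end where an annotated exon begins. Sequences, tables and figures were made in Python 3.11.15 (matplotlib 3.10.9, numpy 2.4.6, pandas 2.3.3).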

Additional observations from a re-analysis of the deposited data

How the results depend on the processing

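TMM normalization changed no call of a member. Scaling by total counts gave 10 members called higher in CM against DMEM, 1 higher in CM + Rux 2 h against CM + Rux, and 7 lower in CM + Rux 2 h against DMEM. Without a filter on low counts 3 members were called higher in the difference of the ruxolitinib effects, 7 higher in CM + Rux 2 h against DMEM and 1 lower in CM + Rux + IKK-16 against CM. With the replicate block the counts were 3 higher in the difference of the ruxolitinib effects, 3 lower in CM + Rux + IKK-16 against CM + Rux, 10 higher and 5 lower in CM + Rux 2 h against DMEM, and 1 lower in CM + Rux + IKK-16 against CM. It moved no other count by more than 1.5 times. DESeq2 gave 2 higher in that difference and 1 lower in CM + Rux + IKK-16 against CM. A model of only the groups compared gave 7 higher in CM + Rux 2 h against DMEM, and no fold change threshold gave 5 lower there and 2 lower in CM + Rux + IKK-16 against CM. The cause of these differences was not tested. Shares of all tested genes were counted only for the main fit and, in part, for the replicate block. The other counts of members, here and below, therefore have no such share beside them.

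With 1 sample left out, members called higher and lower ranged from 7 to 20 and from 4 to 5 in CM against DMEM, from 1 to 2 and at 0 in CM + Rux against CM, from 2 to 3 and at 1 in CM + Rux + IKK-16 against CM + Rux, and from 0 to 1 and at 0 in the difference of the ruxolitinib effects. They ranged from 1 to 3 and from 5 to 13 in CM + Rux 2 h against CM + Rux, from 3 to 6 and from 2 to 4 in CM + Rux 2 h against DMEM, and from 3 to 4 and from 0 to 1 in CM + Rux + IKK-16 against CM. In DMEM + Rux against DMEM no member was called by any alternative. The difference of the ruxolitinib effects had 1 call, of Mylip, without CM + Rux replicate 2 or CM + Rux + IKK-16 replicate 2. Cyp51 changed sign in CM + Rux 2 h against DMEM without CM + Rux 2 h replicate 2 (-0.0334, adjusted p = 0.96), and was 0.926 without replicate 3, with no call in either. Each member had at least 15 counts in every sample.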
